A study of Mus musculus with 6 samples.

Results

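The transcripts of 7 GABA-A receptor subunits, Gabra2, Gabra3, Gabra4, Gabra5, Gabrb1, Gabrb2 and Gabrd, were followed in the aging mouse cortex. They were taken by name from the 38355 genes of the count tables, and all 7 were measured in every sample. The study sequenced polyadenylated RNA of whole cortical hemispheres from C57BL/6 wild-type mice, given chloral hydrate for anesthesia before dissection, comparing 3 brains of 6 months with 3 brains of 16 months. The question put to these subunits was whether their transcript levels, and the balance between synaptic and extrasynaptic subunits, differed between the ages. No transgene or other treatment is named for either age. Samples are named by age and replicate number. A hemisphere holds many cell types, and in such tissue fewer cells of a type and less RNA per cell cannot be told apart.

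GABA-A receptors are chloride channels built of several subunits around a central pore, and GABA released by interneurons opens them. The alpha subunits largely set where a receptor sits: those with alpha 2 or alpha 3 (Gabra2, Gabra3) together with a gamma subunit mediate fast inhibition at synapses, whereas those with alpha 4 and delta (Gabra4, Gabrd), or with alpha 5 (Gabra5), lie mostly outside synapses and carry a lasting tonic current. The beta subunits (Gabrb1, Gabrb2) hold part of the GABA binding site and take part in receptors of both places, so they were counted with neither.

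To show how alike and how different these transcripts are, 90 coding bases of each are given, from the second membrane helix that lines the pore. The stretch is centred on 8 consecutive codons that give the same residues in all 7 longest open reading frames. Capitals mark G and C, since base composition bears on the spread between samples described further on. The sequences run 5′ to 3′ and come from the GENCODE M21 transcripts of GRCm38, the assembly also called mm10, to which the reads had been aligned.
Gabra2: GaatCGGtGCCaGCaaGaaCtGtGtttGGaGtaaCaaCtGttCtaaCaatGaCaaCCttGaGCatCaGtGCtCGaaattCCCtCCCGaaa
Gabra3: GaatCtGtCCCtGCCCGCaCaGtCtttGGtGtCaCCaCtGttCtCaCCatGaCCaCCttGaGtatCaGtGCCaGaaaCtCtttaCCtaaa
Gabra4: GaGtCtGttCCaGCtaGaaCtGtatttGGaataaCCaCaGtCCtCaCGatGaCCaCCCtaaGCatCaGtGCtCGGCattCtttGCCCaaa
Gabra5: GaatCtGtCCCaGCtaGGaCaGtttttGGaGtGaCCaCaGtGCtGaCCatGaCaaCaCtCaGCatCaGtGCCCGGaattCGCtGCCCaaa
Gabrd: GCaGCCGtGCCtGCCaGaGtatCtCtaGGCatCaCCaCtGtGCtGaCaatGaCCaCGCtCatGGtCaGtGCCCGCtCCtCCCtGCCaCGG
Gabrb1: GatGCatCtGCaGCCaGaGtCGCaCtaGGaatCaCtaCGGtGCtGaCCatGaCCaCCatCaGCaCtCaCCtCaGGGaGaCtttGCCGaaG
Gabrb2: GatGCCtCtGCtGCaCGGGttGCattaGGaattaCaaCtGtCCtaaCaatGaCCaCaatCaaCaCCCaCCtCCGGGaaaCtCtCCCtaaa
In Gabra4 the bases lie on the minus strand at chr5:71633546-71633573 and chr5:71624053-71624114, in exons 7 and 8 of 9. In Gabrb1 they lie on the plus strand at chr5:72108809-72108836 and chr5:72121949-72122010, also in exons 7 and 8 of 9. In Gabrd they lie on the minus strand at chr4:155386403-155386430 and chr4:155386085-155386146, again in exons 7 and 8 of 9. The exon junction falls after base 28 of the stretch in every member. Between pairs of members 53.3% to 81.1% of the bases were identical. G and C made up 45.6% of the stretch in Gabra2 and 62.2% in Gabrd. Over the whole coding sequence the share of G and C at the third codon position was 45.6% in Gabra2, 45.3% in Gabra4 and 70.9% in Gabrd.

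The total count on genes lay between 29797253 and 46519280 per sample, and each subunit had between 1344 and 10445 counts. The markers fixed for excitatory cortical neurons, oligodendrocytes, astrocytes, microglia and endothelium were all detected. Markers of regions that border the cortex were detected as well, and some of them were higher at 16 months. Transcripts of 4 Y-linked genes were counted in all 6 samples. A pair of the aged samples stood apart in base composition: over all tested genes the deviation from the mean of the age correlated with the GC content of the transcript with r = 0.59 in 16 months replicate 1 and r = -0.58 in 16 months replicate 2, against -0.13 to 0.16 in the other samples. These are correlations across genes, which are not independent replicates. Results are therefore given with and without offsets that remove the dependence on GC content and exon length from each sample.

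None of the 7 subunit transcripts passed the test between 16 and 6 months (0 of 7, edgeR quasi-likelihood test with Benjamini-Hochberg adjustment over 17120 genes). Among all tested genes 286 passed, or 1.67%, of which 134 were higher at 16 months (0.783%) and 152 lower (0.888%). Unadjusted, 1 member, Gabrb1, had a p under 0.05, and DESeq2's Wald test also called 0 of 7 with the same 1 at an unadjusted p under 0.05. The fitted log2 fold change was above 0 in 4 members and below 0 in 3, but the signs of 5 of them (Gabra2, Gabra4, Gabra5, Gabrb2 and Gabrd) turned under 1 or more of the alternatives tried, among them Gabra2 after the offsets. Their median was 0.0039, against 0.0014 over all tested genes. The widest limits of the 95% intervals over the 7 members were a fall of 15.6% and a rise of 20.5%, and the standard errors lay between 0.05 and 0.08 on the log2 scale. The p-values measure the spread between these 6 brains.

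**Figure D1:**
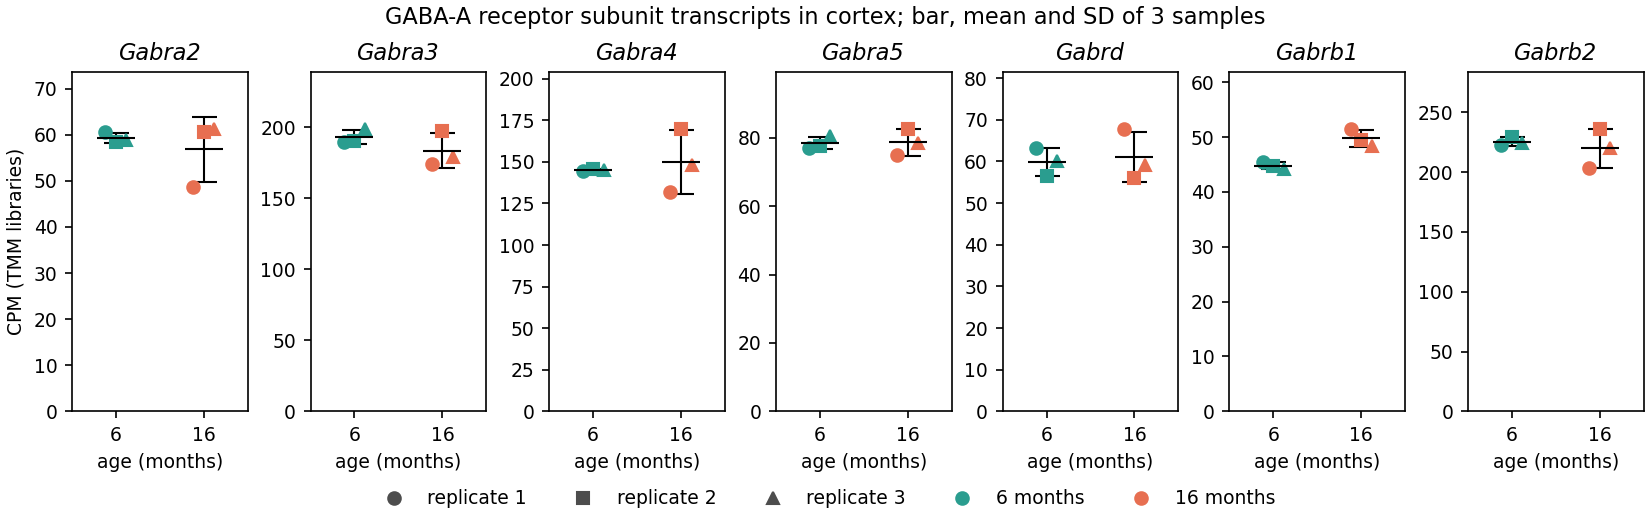
Level of each of the 7 subunit transcripts in every sample, in counts per 1000000 (CPM, vertical axis from 0, scaled separately for each gene) against age in months; the symbol gives the replicate, the bar the mean and the whiskers the SD of 3 samples. In Gabrb1 all 3 samples of 16 months lie above all 3 of 6 months, and in the other 6 genes the ages overlap.

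Among the alpha subunits of synaptic receptors, Gabra3 showed 190, 190 and 199 counts per 1000000 (CPM, scaled to TMM-normalised library sizes) in replicates 1 to 3 at 6 months, and 174, 197 and 179 CPM at 16 months. Its ages overlapped, since 16 months replicate 2 lay among the younger samples. The mean was 193 ± 5.13 CPM at 6 months and 184 ± 12.2 CPM at 16 months (SD, n = 3 per age, as for all means below). The log2 fold change of -0.07 (95% interval -0.21 to 0.06) did not pass the test, with an adjusted p of 0.574 in edgeR. Gabra2, whose product is found at inhibitory synapses that include those on the axon initial segment, showed 60.5, 58.4 and 58.9 CPM at 6 months, and 48.8, 60.5 and 61.3 CPM at 16 months. A single aged sample, replicate 1, lay below all others, and the remaining pair lay close to the younger samples. The log2 fold change of Gabra2 was -0.06 (95% interval -0.25 to 0.12, adjusted p = 0.752 in edgeR), and it was 0.03 after the offsets and 0.04 without 16 months replicate 1.

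Among the extrasynaptic subunits, Gabra4, the usual partner of the delta subunit in the forebrain, showed 145, 146 and 145 CPM at 6 months, the closest agreement of the 7 members, and 132, 170 and 148 CPM at 16 months. The aged samples lay on either side of the younger ones. The mean was 145 ± 0.729 CPM at 6 months and 150 ± 19.2 CPM at 16 months, with a log2 fold change of 0.04 (95% interval -0.14 to 0.23, adjusted p = 0.822 in edgeR). The value was -0.06 without 16 months replicate 2 and 0.13 without 16 months replicate 1. After the offsets the log2 levels were 7.18, 7.15 and 7.16 at 6 months and 7.20, 7.30 and 7.23 at 16 months. On that scale all 3 aged samples of Gabra4 lay above the younger ones, as the ages also lay apart in 32.4% of all tested genes, and its log2 fold change of 0.09 did not pass the test (adjusted p = 0.0956 in edgeR).

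Gabrd, the delta subunit, which makes receptors sensitive to low GABA and to neurosteroids, showed 63.2, 56.6 and 60.0 CPM at 6 months, and 67.8, 56.1 and 59.2 CPM at 16 months. The highest and the lowest of all 6 values were both aged samples. Its log2 fold change was 0.03 (95% interval -0.14 to 0.20, adjusted p = 0.896 in edgeR), and it was -0.06 without 16 months replicate 1. Gabra5, the alpha subunit best known from hippocampal pyramidal cells, showed 77.1, 77.8 and 80.5 CPM at 6 months, and 74.9, 82.7 and 78.4 CPM at 16 months. With means of 78.5 ± 1.76 CPM and 78.7 ± 3.88 CPM it had the smallest difference of the members, a log2 fold change of 0.0039 (95% interval -0.12 to 0.13, adjusted p = 0.980 in edgeR).

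Gabra4 and Gabrd are known to be abundant in thalamus and dentate gyrus, and Gabra4 in striatum, so the markers of these regions are given beside them. In the thalamus list 5 of the 9 tested genes rose (Prkcd, Shox2, Tcf7l2, Tnnt1 and Plekhg1), and the summed level of the list was 125 to 128 CPM at 6 months and 151 to 167 CPM at 16 months. In the dentate gyrus list 3 of 7 rose (Dsp, Lct and C1ql2), with summed levels of 73.9 to 76.4 CPM and 95.2 to 98.2 CPM, and in the striatum list 2 of 9 rose (Pde10a and Penk), with 824 to 845 CPM and 932 to 938 CPM. Tac1 of the striatum list had a log2 fold change of -0.23 (adjusted p = 0.188 in edgeR), and it was called lower with the offsets. Without any 1 of the 6-month samples, or without 16 months replicate 3, the calls were 2 in the thalamus list (Prkcd and Shox2), 2 in the dentate gyrus list (Dsp and Lct) and 0 in the striatum list. In the list for hippocampal CA fields 0 of 5 passed the edgeR test, 2 of them at an unadjusted p under 0.05, with 128 to 133 CPM and 137 to 169 CPM. No gene of these lists was at 0 in every sample. As measured, the summed levels of these 4 lists did not overlap between the ages, and the levels of Gabra4, Gabra5 and Gabrd did. The ages lay apart in 23.7% of all tested genes. After the offsets the ages of Gabra4 lay apart too, as in 32.4% of all tested genes. The part of these regions in the levels of these subunits was not tested.

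Of the beta subunits, Gabrb1 was the 1 member of 7 whose ages did not overlap, a separation shared by 23.7% of all tested genes. It showed 45.4, 44.8 and 44.1 CPM at 6 months, and 51.5, 49.4 and 48.4 CPM at 16 months, so that every aged sample exceeded every younger one. The mean was 44.8 ± 0.646 CPM at 6 months and 49.8 ± 1.61 CPM at 16 months. In log2 units this was a fold change of 0.15 (standard error 0.05), or 11.1% more at 16 months (95% interval 2.47% to 20.5%), and the adjusted p of 0.181 in edgeR missed the threshold of 0.05. After the offsets Gabrb1 had a log2 fold change of 0.21 (adjusted p = 0.0564 in edgeR). It passed the threshold in 1 of 16 alternatives, the offsets together with a term for the replicate number. The offsets widened its spread at 16 months rather than narrowing it. Gabrb2, the most counted of the members, showed 223, 229 and 224 CPM at 6 months, and 203, 236 and 220 CPM at 16 months. Its aged samples lay on either side of the younger ones, and its log2 fold change was -0.04 (95% interval -0.17 to 0.10, adjusted p = 0.803 in edgeR).

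Gabrb1 and Gabra4 are neighbours that face away from each other on chromosome 5 (Gabra4 at chr5:71569749-71658308, minus strand, and Gabrb1 at chr5:71658113-72149037, plus strand). Their annotated exons share 46 bases at the start of both genes, 0.756% of the exon bases of Gabra4 and 0.332% of those of Gabrb1. The counting left out reads that overlap more than 1 gene, so these bases could add little to either. Gabra2 lies on the same strand as Gabra4, 473899 bases away (chr5:70957597-71095849). The log2 ratio of Gabra4 to Gabrb1 per kb was 2.86, 2.89 and 2.90 at 6 months, and 2.54, 2.97 and 2.80 at 16 months. The other members lie on separate chromosomes, Gabrb2 at chr11:42419757-42629028, Gabra5 at chr7:57407672-57510059, Gabrd at chr4:155384980-155398112 and Gabra3 at chrX:72432681-72656848. Gabra5 shares 148 exon bases (4.98% of its exons) with Gm9962 on the other strand, and its count is uncertain by that much. The other 6 members have no copy of 97% identity over 100 bases among the annotated transcripts.

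**Figure D2:**
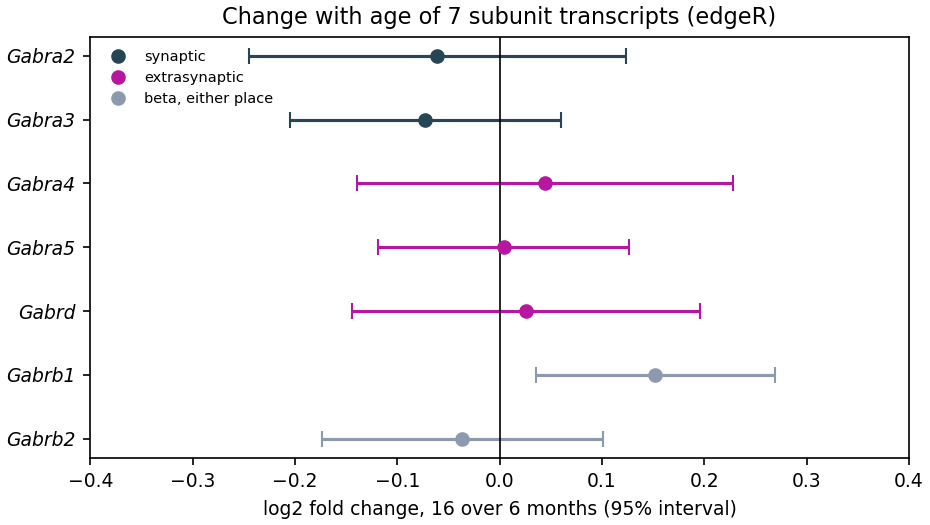
Log2 fold change of each subunit transcript at 16 over 6 months (horizontal axis) with its 95% interval from the edgeR fit, coloured by the place of the receptor (synaptic, extrasynaptic, or beta subunits found in both places). The interval of Gabrb1 lies above 0, from 0.04 to 0.27, and the intervals of the other 6 include 0.

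Levels were compared between genes as CPM per kb of exon. Gabra3 was highest with a mean over the 6 samples of 48.0 CPM per kb. Gabrb2 followed with 35.0, Gabra5 with 26.4, Gabra4 with 24.3, Gabrd with 21.0, Gabra2 with 7.60 and Gabrb1 with 3.42 CPM per kb. The ranges of Gabra5 and Gabra4 over the samples overlapped, and within a sample Gabra5 was higher in 5 of 6. Those of Gabra4 and Gabrd overlapped too, with Gabra4 higher in 5 of 6. After the offsets the log2 ratio within a sample was 0.06 to 0.20 for Gabra5 over Gabra4. It was 0.12 to 0.33 for Gabra4 over Gabrd, so that both ratios were above 0 in every sample with this exon length. The other neighbours in the order did not overlap. The members made up 42.3% to 46.7% of the summed level per kb of all 19 GABA-A subunit genes. The order holds at both ages, with 49.2, 35.4, 26.4, 23.9, 20.8, 7.76 and 3.24 CPM per kb at 6 months and 46.8, 34.5, 26.5, 24.6, 21.2, 7.44 and 3.60 CPM per kb at 16 months, in the same sequence of genes.

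As a share of the summed level per kb of the 7 members, Gabra3 had 29.5% at 6 months and 28.4% at 16 months, and Gabrd had 12.5% and 12.96%. Gabrb1 had 1.94% and 2.19%. These shares depend on the length by which counts are divided, which differs most for Gabrb1, whose annotated exons span 13838 bases, 12228 of them after the stop codon. Divided by the longest open reading frame instead, its share over the 6 samples was 6.34% in place of 2.06%. With the longest transcript, Gabrb2 had 26.8% and stood above Gabra3 with 24.7%. Gabra4 then stood above Gabra5, with 17.2% against 14.1%, and with the longest open reading frame it had 16.2% against 10.8%. The order of Gabra5 and Gabra4 therefore depends on the length used.

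**Figure D3:**
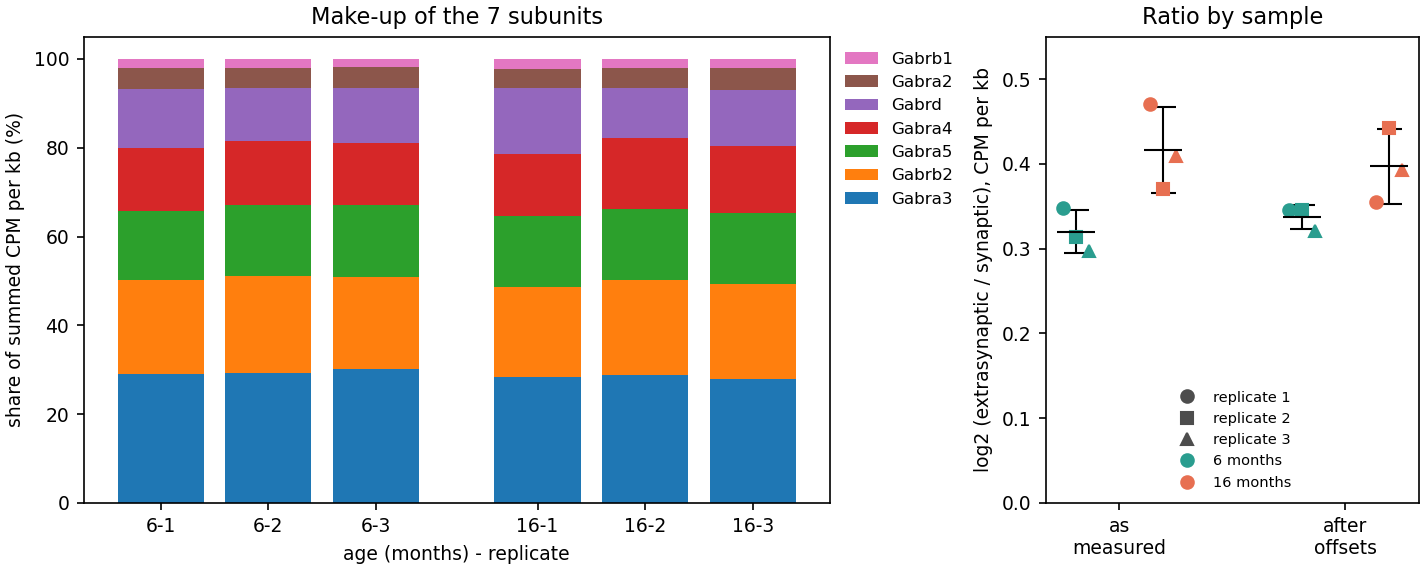
Left, share of each subunit in the summed CPM per kb of the 7 members (vertical axis, percent) for the 6 samples, labelled by age and replicate; right, log2 ratio of the extrasynaptic to the synaptic subunits in each sample, as measured and after GC and length offsets, with mean and SD of 3 samples. The order of the shares by gene means is Gabra3, Gabrb2, Gabra5, Gabra4, Gabrd, Gabra2 and Gabrb1, the share of Gabrd runs from 11.2% to 15.04%, and the 16-month ratios of 0.37 to 0.47 lie above the 6-month ratios of 0.30 to 0.35.

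The balance of extrasynaptic to synaptic transcripts was described by the log2 ratio of the summed level per kb of Gabra4, Gabra5 and Gabrd to that of Gabra2 and Gabra3. The ratio was 0.35, 0.31 and 0.30 at 6 months, and 0.47, 0.37 and 0.41 at 16 months. The ages did not overlap. The mean was 0.32 ± 0.03 at 6 months and 0.42 ± 0.05 at 16 months, a difference of 0.10 on the log2 scale. No test was made of this sum over chosen genes, and none of its 5 genes passed the test on its own. As measured, Gabra2 and Gabra3 had fold changes below 0 and Gabra4, Gabra5 and Gabrd above 0, and of these 5 only Gabra3 kept its sign under every alternative. The level of the ratio depends on the subunits summed: without Gabra5 it was -0.35 at 6 months and -0.24 at 16 months. With all measured subunits of each role it was -1.60 ± 0.05 at 6 months and -1.40 ± 0.14 at 16 months, so that the synaptic side was the larger and the difference was 0.20. After the offsets the difference fell to 0.06, with 0.35, 0.35 and 0.32 at 6 months and 0.36, 0.44 and 0.39 at 16 months. The aged sample with the highest ratio then was replicate 2, whereas it was replicate 1 as measured. Without 16 months replicate 1 the difference was 0.07.

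The spread between samples was larger at 16 months in 7 of 7 members. The SD of log2 CPM was 0.0072 to 0.08 at 6 months, with a median of 0.03, and 0.05 to 0.19 at 16 months, with a median of 0.11. Over all tested genes the median SD was 0.06 at 6 months and 0.13 at 16 months, so the wider spread at 16 months was seen across the transcriptome too. The members moved in a pattern: 5 of them, Gabra2, Gabra3, Gabra4, Gabra5 and Gabrb2, were lowest at 16 months in replicate 1, and 4 of these, all but Gabra2, were highest in replicate 2. Gabrd did the opposite, with its highest level in replicate 1 and its lowest in replicate 2, and Gabrb1 was highest in replicate 1 as well.

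These deviations can be set beside GC content. The longest transcript of Gabra2 has 38.4% G and C, that of Gabrb1 40.9%, Gabra4 42.2%, Gabra3 43.1%, Gabrb2 44.0%, Gabra5 47.1% and Gabrd 54.7%, against a median of 49.7% over all tested genes. In all, 2.77% of tested genes had less than Gabra2, and 23.5% had more than Gabrd. Relative to its 16-month mean, Gabra2 stood at -0.21 on the log2 scale in 16 months replicate 1, where Gabra4 stood at -0.18 and Gabrd at 0.16. In 16 months replicate 2, Gabra4 stood at 0.19 and Gabrd at -0.12. Over the 7 members the deviation correlated with GC content with r = 0.74 in replicate 1 and r = -0.68 in replicate 2. In 16 months replicate 3 it was r = -0.52, although over all tested genes that sample had r = -0.05. An r of this size over the 7 members was thus not limited to the pair of samples that stood apart. These values describe 7 genes in 1 sample each. Gabrb1, low in GC content and yet highest in replicate 1, was an exception there. After the offsets the SD at 16 months was smaller in 6 of 7 members, with a median of 0.05 in place of 0.11 (0.08 over all tested genes). The exception was Gabrb1, whose SD was 0.05 before and 0.19 after. The log2 ratio of Gabra4 to Gabrd, the pair that forms one receptor type, was 0.11, 0.29 and 0.19 at 6 months, and -0.13, 0.52 and 0.24 at 16 months. After the offsets it was 0.14, 0.33 and 0.26 at 16 months, a narrower range with the same order of samples.

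**Figure D4:**
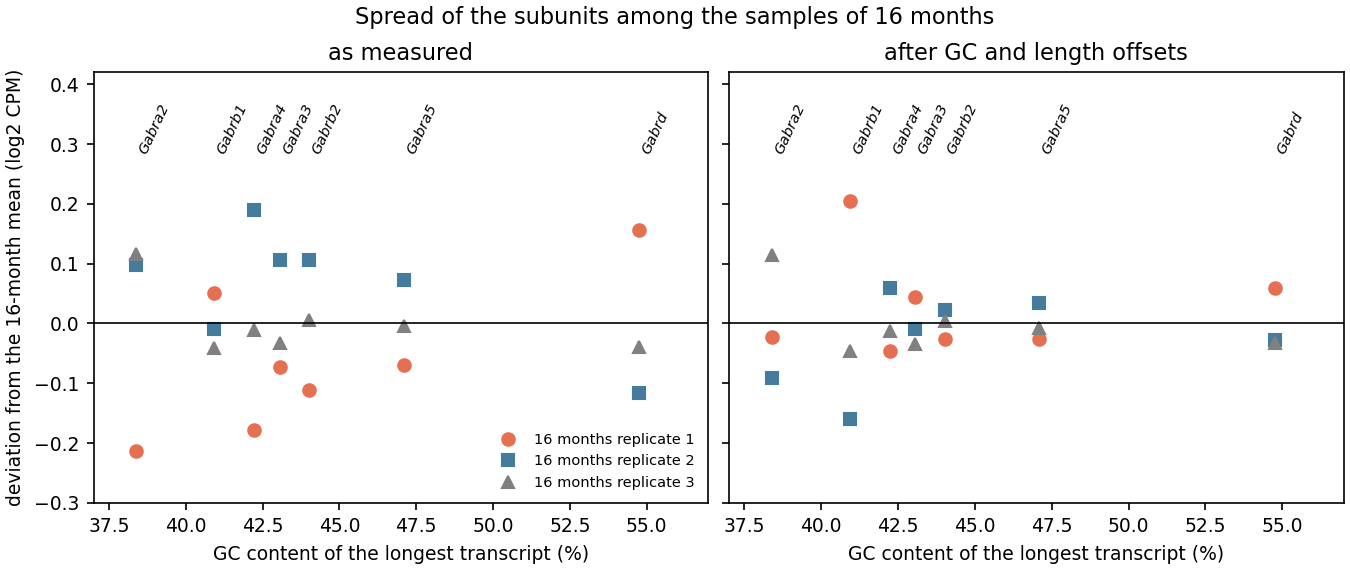
Deviation of each subunit from its 16-month mean (log2 CPM, vertical axis) in the 3 samples of 16 months against the GC content of its longest transcript (percent), as measured (left) and after GC and length offsets (right). As measured, replicate 1 runs from -0.21 at Gabra2 to 0.16 at Gabrd and replicate 2 from 0.19 at Gabra4 to -0.12 at Gabrd, and after the offsets the SD of the 3 points is smaller for 6 of the 7 members, all but Gabrb1.

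Over the 6 samples the log2 CPM of Gabra4 and Gabra5 correlated with r = 0.91, and that of Gabrb2 and Gabrd with r = -0.92. These were the highest and the lowest r of all pairs of members. These values describe samples that share depth and base composition, and after the offsets they were 0.44 and -0.68. Since the pairs were picked as extremes, their fall does not stand for the other pairs. Gabrb1 and Gabrb2, for example, went from -0.48 to -0.90. Of all tested genes, Vps11 and Ttc7b had the pattern most like that of Gabrd (Pearson r of 0.997 and 0.996 over 6 samples), with transcripts of 52.8% and 53.3% G and C. Spred1 and Ubxn2a were most like Gabra4 (r of 0.997 and 0.996), with 41.2% and 45.3%. Altogether 215 genes had an r over 0.95 with Gabrd and 271 with Gabra4.

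The genes around the subunits were counted in the same fit. Of the 12 other GABA-A subunit genes, 7 were tested and 0 passed in edgeR, 1 of them with an unadjusted p under 0.05. The other 5 (Gabra6, Gabre, Gabrp, Gabrr1 and Gabrr3) stayed under the filter on low counts. The median log2 fold change of the tested ones was 0.06. In the list for anchoring and trafficking of the receptors 0 of 20 passed in edgeR and 3 had an unadjusted p under 0.05. Of these 20 fold changes 16 were above 0, with a median of 0.10. Among its most abundant genes were Nsf, an ATPase of membrane fusion that binds the receptor's beta subunits, with a log2 fold change of 0.15 (adjusted p = 0.125), and Gabarapl1, a relative of the receptor-associated protein GABARAP, with -0.02. After the offsets 5 of the 20 passed (edgeR, against 14.2% of all tested genes). Among them Ubqln1, Nsf and Shisa7 were higher at 16 months and Iqsec3 was lower, genes that are named after their values were seen.

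Of the 6 genes for GABA-B receptors, the slower G protein-coupled receptors for GABA, 5 were tested and 0 passed in edgeR, 1 of them with an unadjusted p under 0.05. Gabbr2, the subunit that couples to the G protein, had 305 ± 9.63 CPM at 6 months and 352 ± 29.0 CPM at 16 months, a log2 fold change of 0.21 (adjusted p = 0.147 in edgeR), and Gabbr1 had 0.07. In the list for neuronal chloride transport, which sets the driving force of the GABA-A channel, 0 of 5 passed in edgeR, 1 of them with an unadjusted p under 0.05. Slc12a5, the chloride exporter KCC2, had a log2 fold change of 0.12 (adjusted p = 0.484) and Slc12a2, the importer NKCC1, had -0.10 (adjusted p = 0.571). Of the 4 markers of GABAergic neurons 0 passed in edgeR, and 3 had an unadjusted p under 0.05. All 4 had fold changes above 0, among them Gad1 with 0.15 and Gad2 with 0.16 on the log2 scale, and their summed level was 1010 to 1047 CPM at 6 months and 1146 to 1168 CPM at 16 months. The summed level of the 7 members was 803 to 812 CPM at 6 months and 752 to 852 CPM at 16 months, so that the ages overlapped for the receptor subunits.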

How the data were processed

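The authors trimmed the reads, aligned them to mm10 with STAR and counted them per gene with HTSeq, per the study's methods. The submitters' processing notes list CASAVA 1.8.2, STAR 2.3.0e and featureCounts 1.5.0-p1, but the deposited counts end in the 5 summary lines that HTSeq writes. The deposited values are raw counts per gene. Between 70.8% and 76.5% of uniquely aligned reads lay on a gene. For the younger mice the growth protocol among the labels says 3 months. The 6 months of the remaining labels was used. Of 38355 genes, 36602 were matched by identifier to GENCODE M21.

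Counts were tested with edgeR 4.0.16 in R 4.3.3 (TMM, filterByExpr on age, 17120 genes, quasi-likelihood test, Benjamini-Hochberg at 0.05, no covariates, common biological variation 6.40%). CPM use TMM library sizes, and log2 CPM a prior count of 2. Exon length is the union of annotated exons. Offsets are medians over 20 bins of GC content and length per sample, and 98.7% of tested genes had the values needed. Copies were searched with blastn 2.17.0. Alternatives were DESeq2 1.42.0, other scalings and filters, the replicate block, the offsets, thinned counts and each sample left out.

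The members and gene lists were chosen with earlier results of these data known. The members are named in full; of the other lists, called genes and at most 3 others of highest level; for likeness, the 2 most alike genes of Gabrd and Gabra4, as no member was called. Single values of some genes of these lists are not reported here.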

Additional observations from a re-analysis of the deposited data

How the results depend on the processing

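Over 16 alternatives for each of the 7 members, 1 of 112 results passed the threshold. Gabrb1 kept a fold change above 0 in all 16 (0.13 to 0.21) and passed only with the GC and length offsets together with the replicate block (0.21, adjusted p = 0.0101, edgeR, where 19.4% of all genes passed). That is the 1 setting with 1 member called instead of 0. The replicate numbers come from the labels. Deviations of same-numbered samples correlated with r = 0.18, 0.096 and 0.035, against -0.13 to 0.04 between differing numbers. Of the 6 samples, 5 correlated best with their own number. The labels do not say what same-numbered samples share, and the main test used no term for the number. Whether the numbers mark a batch or a pairing was not tested further. The replicate block moved the count of called genes from 286 to 783 and called 0 of 7 members (Gabrb1, adjusted p = 0.121).

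The count of called genes was 648 without a filter, 468 with DESeq2's Wald test, 2431 with the offsets and 3322 with the offsets and the replicate block. Leaving out 1 sample gave 48 to 2211. It was 55, 57 and 48 without 6 months replicates 1, 2 and 3, and 995, 2211 and 58 without 16 months replicates 1, 2 and 3. With the offsets alone, 2 other subunits, 5 anchoring genes, 1 GABA-B gene (Gabbr2) and 2 chloride genes (Wnk3 and Oxsr1) passed. With the offsets and the replicate block these counts were 3, 9, 1 (Gabbr2) and 5, and with the replicate block alone 1 GABA-B gene (Gabbr2) passed. Leaving out 1 sample gave 0 to 2, 0 to 4, 0 to 1 and 0 to 1, where the calls came without 16 months replicate 2, other than 1 anchoring gene (Slitrk3) without 16 months replicate 1.

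Small fold changes changed sign. Gabra2 had 0.033 with the offsets and 0.036 with the offsets and replicate block. With the offsets alone Gabra3 had -0.040, Gabra5 0.00055, Gabrb2 -0.027 and Gabrd 0.0014, each with the sign of the main test. Gabra5 had -0.011 with upper quartile factors, -0.00043 without a filter and -0.00021 with the offsets and replicate block. Leaving out 1 sample gave -0.12 to 0.038 for Gabra2, -0.13 to -0.037 for Gabra3, -0.056 to 0.13 for Gabra4, -0.033 to 0.037 for Gabra5, 0.13 to 0.17 for Gabrb1, -0.091 to 0.017 for Gabrb2 and -0.058 to 0.082 for Gabrd. The signs turned without 16 months replicate 1 (Gabra2, Gabrb2, Gabrd), 16 months replicate 2 (Gabra4, Gabra5), 6 months replicate 1 (Gabra5) or 6 months replicate 2 (Gabra5, Gabrd). The other scalings moved the median of all genes by less than 0.02.

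The difference of the extrasynaptic to synaptic ratio was 0.20 when all measured subunits of each role were summed, and 0.07 to 0.12 with 1 sample left out. Shares of the subunit pool moved with the length used. With the longest transcript they were 24.7% for Gabra3, 17.2% for Gabra4, 14.1% for Gabra5, 1.66% for Gabrb1, 26.8% for Gabrb2 and 10.8% for Gabrd. With the longest open reading frame, added after seeing the data, they were 8.16% for Gabra2, 22.4% for Gabra3, 16.2% for Gabra4, 10.8% for Gabra5, 6.34% for Gabrb1, 27.6% for Gabrb2 and 8.57% for Gabrd. Apart from the settings whose construction shows the cause (fewer samples, another length), the cause was not tested.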

Other observations

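Subunit genes that border the members on the chromosome were measured too. Gabrg1, a gamma subunit 114979 bases from Gabra2 on chromosome 5, had 44.3 ± 2.87 CPM at 6 months and 42.7 ± 8.14 CPM at 16 months, a log2 fold change of -0.05 (adjusted p = 0.856 in edgeR). Gabrg3, 20483 bases from Gabra5 on chromosome 7, had 39.6 ± 0.993 CPM and 42.8 ± 3.47 CPM, a log2 fold change of 0.11 (adjusted p = 0.431). On the X chromosome Gabra3 is flanked by genes with few counts. Gabrq, the theta subunit, 168329 bases away, had 0.749 ± 0.184 CPM at 6 months and 1.06 ± 0.05 CPM at 16 months (log2 fold change 0.47, adjusted p = 0.293), and Gabre, the epsilon subunit, 157877 bases away, stayed under the filter on low counts with a mean of 0.231 CPM at 6 months and 0.204 CPM at 16 months. Gabra3 itself had the highest level of the 7 members per kb of the union of exons, and stood below Gabrb2 with other lengths.

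Gfap, an intermediate filament protein of astrocytes, fell from 259 ± 5.24 CPM to 187 ± 9.89 CPM (log2 fold change -0.47, adjusted p = 0.00332 in edgeR), the 1 called gene of the 5 astrocyte markers, whose summed level was 1460 to 1486 CPM at 6 months and 1485 to 1603 CPM at 16 months. Of these 5 markers 4 had an unadjusted p under 0.05, and the other 3 of them had fold changes above 0 (Slc1a3 with 0.20, Gja1 with 0.22 and Aldh1l1 with 0.25), opposite to Gfap. Aif1, a microglial calcium-binding protein, fell with a log2 fold change of -0.43 (adjusted p = 0.0418), the 1 called gene of the 5 microglia markers. Of these, 3 had fold changes above 0, among them Csf1r with 0.25, and the summed level of the list was 243 to 253 CPM at 6 months and 259 to 263 CPM at 16 months. Ttr, made by the choroid plexus, rose from 8.95 ± 0.573 CPM to 17.8 ± 1.08 CPM, the 1 called gene of the 6 choroid plexus markers. Of the markers for excitatory cortical neurons (0 of 6), oligodendrocytes (0 of 5) and endothelium (0 of 5) none passed in edgeR, with 1 in each list at an unadjusted p under 0.05.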
